A study of Danio rerio with 23 samples.

Results

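Livers of obese HBx,src transgenic zebrafish were compared with livers of wild-type (WT) zebrafish after 40 Gy of irradiation without Oligo-Fucoidan (OF), the seaweed polysaccharide that the study tested. The comparison takes 5 of the 23 arrays of the series by their titles, 3 of HBx,src fish and 2 of WT fish, all from the first batch. WT fish, of the AB strain, ate a normal diet of about 6.9 mg of Artemia cysts per fish and day. The HBx,src fish carried the hepatitis B virus X gene and src, each driven in the liver by the fabp10a promoter, beside a heart EGFP marker. They were females overfed from 3 months of age with about 83 mg of cysts per fish and day for 2 months, which is the diet-induced obesity (DIO) of the study. Both groups got 40 Gy and, in place of OF, a mock treatment, and were 6 months old. The sex of the WT fish is not given in the sources used here, so genotype, diet and possibly sex change together and cannot be told apart. Both groups were irradiated, so an effect of irradiation common to both does not show in the difference. The series holds no array without irradiation, so whether the groups responded differently to 40 Gy was not tested. The labels do not say whether the arrays of a group are separate fish, and p-values then measure only the spread between arrays.

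HBx is a viral regulatory protein found in hepatitis B related liver cancer, and src is a tyrosine kinase of growth signalling. The female liver of egg-laying animals makes vitellogenins, the yolk precursors, under the control of oestrogen and exports them through the blood to the ovary. The liver also converts excess food into fatty acids, exports lipids as lipoproteins, and makes most of the coagulation and complement proteins of the plasma.

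Signals are log2 values per probe set, and each gene is given by the brightest of its probe sets. The array medians were 2.13 to 2.21, and values near them cannot be told from background here. Arrays of the same group correlated at 0.898 for WT and at 0.916 to 0.940 for HBx,src, and arrays of different groups at 0.873 to 0.897, so the WT arrays were about as close to the third HBx,src array as to each other. The hepatocyte genes tfa (transferrin), fabp10a and apoa2 lay between 11.50 and 13.52 on all 5 arrays. Of the other defining hepatocyte markers, fga was 13.30 and 13.39 in WT against 12.57 to 12.83 in HBx,src (adjusted p = 0.229). serpina1 went the other way, with 9.87 and 9.89 against 10.29 to 10.99 (adjusted p = 0.166), and ambp overlapped (adjusted p = 0.499). The native src gene, whose probe set was not tested against the transgene, was at 4.26 and 4.16 in WT and at 4.46, 5.54 and 4.98 in HBx,src (difference 0.78 ± 0.50 (SE), adjusted p = 0.528). No array carried the oocyte genes dazl and bmp15 above 2.47, but zp3b read 5.39 on the third HBx,src array and 1.71 to 2.42 on the others. The third HBx,src array was set apart by egg envelope and other ovary genes. zp2.5 read 7.22 there and 1.66 to 3.73 on the other 4 arrays, and zp3a.2 read 7.23 against 1.78 to 2.37. h1m read 6.05 against 1.78 to 2.13, and btg4 5.83 against 1.73 to 1.92. On this array 19 of 55 ovary genes were over 1 log2 unit above every other array, a share that was not counted over all genes. The part of the ovary genes in the differences was not tested.

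Of 75212 probe sets, 630 were higher in HBx,src (0.838%) and 818 lower (1.09%). By gene, 270 of 21125 genes were called higher in HBx,src (1.28%) and 296 lower (1.40%) at an adjusted p under 0.05, with a median size of 1.56 log2 units up and 1.57 down. The arrays of the 2 groups did not overlap for 565 of these 566 genes, but this was so for 15.3% of all genes in the higher and 13.1% in the lower direction. The median difference of all genes was 0.02. Among the 4690 genes with a mean above 5, 3.41% were called higher and 3.03% lower. The counts rest on a spread shared over all 23 arrays: 169 genes were called with the 11 arrays of the first batch alone (76 higher, 93 lower), and 14 with the 5 arrays alone. They were 293 and 297 without the first and the second HBx,src array and 863 without the second WT array. Of 117 named genes 98 were called, and 62 of these lost their call with the first batch alone and 89 with the 5 arrays alone. With the first batch alone 4 uncalled ones gained a call. A call said below to hold without each array held in the full fit with 1 array left out. After each array was centred on its own median, 326 genes were called higher and 214 lower, so the balance of the directions depends on the scaling.

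**Figure D1:**
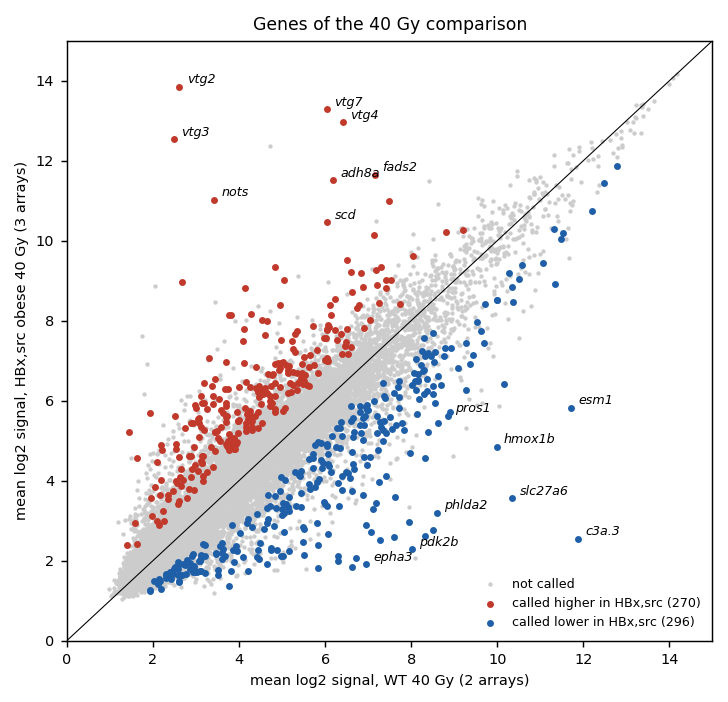
Mean log2 signal of each gene in 3 HBx,src obese arrays (vertical axis) against 2 WT arrays (horizontal axis), all with 40 Gy alone, with 270 genes called higher in red, 296 called lower in blue and the line of equal signal. vtg2, vtg7 and vtg4 lie at the upper edge, at 12.96 to 13.84 in HBx,src, and c3a.3 lies at the lower right, near 12 in WT and 2.5 in HBx,src.

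The batch also holds 2 WT and 4 HBx,src arrays with OF before 40 Gy (OF + R). These fish got OF at 300 mg/kg by oral gavage for a month from 4 months of age, with age and diet as above. The called genes differed in where these arrays lay. For 209 of the 270 higher genes, the 2 WT arrays with 40 Gy alone were below all 9 other arrays of the batch, the WT OF + R arrays included, against 6.12% of all genes. The same held, in the other direction, for 152 of the 296 lower genes, against 4.10% of all genes. In 65 higher and 80 lower genes, all 7 HBx,src arrays lay beyond all 4 WT arrays, against 1.37% and 1.39% of all genes. The 3 HBx,src arrays with 40 Gy alone were beyond all 8 others in 17 higher and 83 lower genes, against 1.23% and 1.89% of all genes. These shares are a description, since a gene was called because its WT arrays lay apart. Which of genotype, diet, sex or the 2 WT livers moves a gene cannot be told apart within the 5 arrays.

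The 2 largest differences were in the yolk protein genes vtg2 and vtg3. vtg2 was at 2.42 and 2.81 in WT and at 13.85, 13.92 and 13.76 in HBx,src, a difference of 11.23 ± 2.17 (adjusted p = 0.0134). The WT arrays were close to the array medians and the transgenic arrays close to the top of the scale, which ended at 14.2. vtg3 rose from 2.71 and 2.28 to 12.89, 12.63 and 12.10 (10.04 ± 2.42, adjusted p = 0.0404). vtg7 was 5.99 and 6.08 in WT and 13.37, 13.34 and 13.16 in HBx,src (7.25 ± 1.62, adjusted p = 0.0286), and vtg4 was 5.64 and 7.19 against 12.996, 13.02 and 12.87 (6.55 ± 1.32, adjusted p = 0.0169). nots, which encodes the egg-associated protease nothepsin of the female liver, stood at 3.67 and 3.18 against 11.49, 11.11 and 10.44 (7.59 ± 1.85, adjusted p = 0.0426). In each of these 5 genes both WT arrays lay below all 3 HBx,src arrays, which the rule that named them required.

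Of the 19 measured genes of the oestrogen-response list, 6 were higher (1.28% of all genes were) and 1 was lower, with a median difference of 2.05. The sixth was rbp2a, a retinol-binding protein gene (2.05 ± 0.52, adjusted p = 0.0488). The lower one was f8, coagulation factor VIII, which was 6.58 and 6.56 in WT and 3.87, 4.53 and 3.77 in HBx,src (fell by 2.51, SE 0.33, adjusted p = 0.00099). The oestrogen receptor gene esr1 read 2.33 and 4.23 against 7.79, 8.11 and 5.12, and vtg6 6.72 and 2.70 against 13.10, 12.65 and 11.33, without overlap, but neither passed the test (adjusted p = 0.208 and 0.0715). vtg5 read 1.70 and 1.77, below both array medians, against 7.92, 8.23 and 6.72 (adjusted p = 0.1002). rbp2a, esr1, vtg5 and vtg6 were chosen after their values were seen. Averaged over the list, the arrays stood at 4.25 and 4.35 in WT and between 7.73 and 8.16 in HBx,src.

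The errors of these genes are those of the fit over all 23 arrays. With the 11 arrays of the first batch alone, the adjusted p was 2.73e-06 for vtg2, 5.49e-06 for vtg3, 2.51e-07 for vtg7, 7.72e-05 for vtg4 and 9.5e-05 for nots. In the full fit, vtg2 and vtg4 lost their call without the first WT array (adjusted p = 0.0523 and 0.0933), vtg7 without any array but the third HBx,src one (up to 0.0932), and vtg3 and nots without any single array (up to 0.114 and 0.123), while all kept a difference of 5.77 or more. rbp2a was lost without any array but the second WT one (up to 0.354), and 0 of the list stayed called higher without the first WT array. The WT OF + R arrays held 6.36 and 4.64 for vtg2, 3.19 and 2.83 for vtg3 and 9.21 and 8.83 for vtg4, between the WT arrays with 40 Gy alone and the HBx,src arrays.

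**Figure D2:**
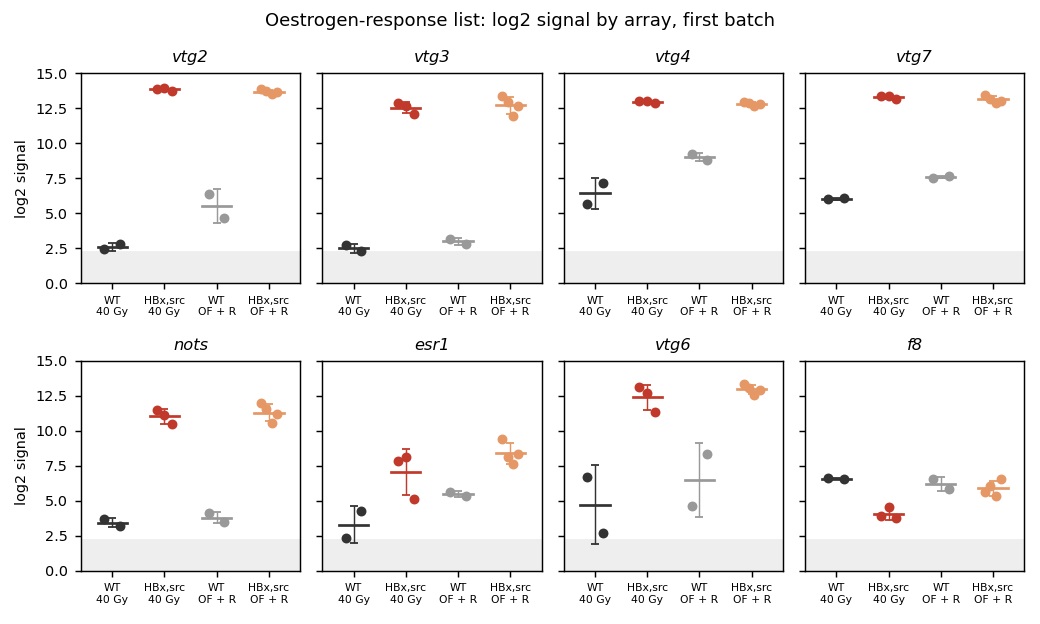
Log2 signal of 8 genes of the oestrogen-response list in each array of the first batch, by group (WT and HBx,src with 40 Gy alone, then with OF + R); points are arrays, lines the mean and bars the SD, and grey marks values under the highest array median. The called genes vtg2, vtg3, vtg4, vtg7 and nots sit above 10 in all 3 HBx,src arrays and under 7.2 in both WT arrays, while f8 runs the other way.

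Of 47 genes on the lipogenesis list, 4 were higher in the HBx,src livers (8.51%, against 1.28% of all genes) and 0 lower, and the list's median difference was 0.26. fads2, the desaturase of polyunsaturated fatty acids, was 5.90 and 8.42 in WT and 11.91, 11.89 and 11.12 in HBx,src (4.48 ± 0.53, adjusted p = 0.000377). scd, which makes monounsaturated fatty acids, was 8.11 and 3.99 against 10.95, 10.89 and 9.53 (4.41 ± 0.99, adjusted p = 0.029). The WT arrays were far from each other in both genes, and in opposite order. elovl2, an elongase of polyunsaturated fatty acids, was 7.11 and 5.92 against 9.67, 9.76 and 9.15 (3.01 ± 0.59, adjusted p = 0.0141), and lpcat3, which puts them into phospholipids, was 1.14 ± 0.29 higher (adjusted p = 0.0488). These were the 4 higher genes, and 2 genes of the list were called higher without the second WT array or without the first or second HBx,src array. fasn, the fatty acid synthase, gave no uniform picture, with 5.21 and 4.62 in WT and 5.86, 9.77 and 4.34 in HBx,src (1.74 ± 1.09, adjusted p = 0.507), and elovl5 was 1.41 ± 0.43 higher (adjusted p = 0.113).

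fads2 kept its call without each array (differences of 3.22 to 5.74) and with the first batch alone (adjusted p = 0.0188). elovl2 lost it without the second WT array (adjusted p = 0.0877), scd without that array (0.259) or the first or second HBx,src array (0.0879 and 0.0837), and lpcat3 without the first WT array (0.316) or either of the same HBx,src arrays (0.136 and 0.127). mid1ip1l, an activator of fatty acid synthesis chosen after its values were seen, was 3.83 and 3.56 in WT and 7.17, 7.48 and 6.21 in HBx,src (3.26 ± 0.40, adjusted p = 0.000493), with all 7 of its probe sets in the same direction, and held without each array.

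Named genes of lipid uptake, transport and oxidation were called in both directions. slc27a6, a fatty acid transporter, was 10.06 and 10.64 in WT and 3.01, 2.44 and 5.22 in HBx,src (fell by 6.79, SE 1.58, adjusted p = 0.0341), and pltp, which moves phospholipids between lipoproteins, was 7.36 and 8.54 against 2.41, 2.37 and 4.14 (fell by 4.98, SE 0.87, adjusted p = 0.00719). pdk2b, a kinase that keeps pyruvate out of mitochondrial oxidation, dropped from 7.37 and 8.66 to 2.20, 1.89 and 2.75 (a difference of -5.74 ± 0.91, adjusted p = 0.00353). apobb.2, a form of the apolipoprotein of yolk-type and liver lipoproteins, was 6.77 and 7.48 in WT and 10.46, 10.67 and 9.29 in HBx,src (3.01 ± 0.49, adjusted p = 0.00399). sar1b, a small GTPase needed to export lipoproteins, was 10.37 and 10.30 against 8.50, 9.03 and 8.96 (fell by 1.51, SE 0.29, adjusted p = 0.0116).

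On the list of fatty acid oxidation, 3 of 42 genes were higher (7.14%, against 1.28% of all genes) and 2 lower (4.76%, against 1.40%). The list's median difference was 0.37, and -0.0053 without the first WT array. Its means per array overlapped, with 5.96 and 6.81 in WT and 6.27 to 6.62 in HBx,src. The higher ones act largely in peroxisomes: decr2 (1.47 ± 0.26, adjusted p = 0.00739), hsd17b4 (2.31 ± 0.51, adjusted p = 0.0266) and ehhadh (1.90 ± 0.48, adjusted p = 0.04996). The lower ones were pdk2b and cpt1ab, the carnitine transferase of mitochondrial entry (fell by 2.48, SE 0.56, adjusted p = 0.029). pdk2b, decr2, apobb.2, pltp and sar1b kept their calls without each array. slc27a6 lost its call without any array but the third HBx,src one (adjusted p up to 0.107), as did ehhadh (up to 0.198). hsd17b4 and cpt1ab lost theirs without the first or second HBx,src array and without 1 WT array, the first for hsd17b4 (0.197) and the second for cpt1ab (0.201). On the apolipoprotein list of 28, apobb.2 was the 1 higher gene (3.57%) and pltp and sar1b the 2 lower ones (7.14%), against 1.28% and 1.40% of all genes. On the same list apoa4b.1 was 2.22 ± 0.58 higher without passing (adjusted p = 0.0556).

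**Figure D3:**
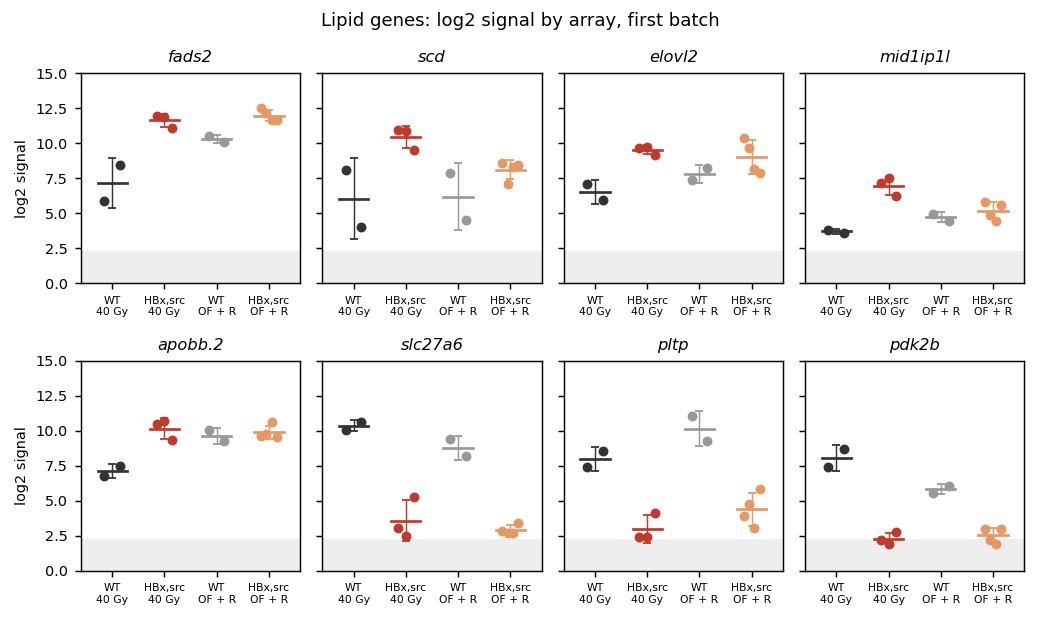
Log2 signal of 8 lipid genes in each array of the first batch, by group; points are arrays, lines the mean and bars the SD, and grey marks values under the highest array median. fads2, scd, elovl2, mid1ip1l and apobb.2 are higher in HBx,src than in WT with 40 Gy alone, and slc27a6, pltp and pdk2b are lower in both HBx,src groups than in both WT groups.

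Of 27 measured coagulation genes, 7 were lower in HBx,src (25.9%, against 1.40% of all genes) and 0 higher, and the list's median was -0.48. The arrays did not overlap for 15 of the 27 in the lower direction (13.1% of all genes) and for 0 in the higher direction (15.3%). pros1, the anticoagulant protein S, was 9.16 and 8.56 in WT and 5.84, 4.96 and 6.06 in HBx,src (fell by 3.24, SE 0.47, adjusted p = 0.00213). proca, protein C, was 10.23 and 10.77 against 9.34, 8.83 and 8.97 (fell by 1.45, SE 0.27, adjusted p = 0.0103), and serpinc1, antithrombin, 12.35 and 12.62 against 11.41, 11.21 and 11.72 (fell by 1.04, SE 0.19, adjusted p = 0.0104). The others were f8, given above, plg (plasminogen, -0.93 ± 0.20), f5 (factor V, -1.44 ± 0.35) and serpind1 (heparin cofactor, -1.04 ± 0.25), at adjusted p of 0.0239, 0.0435 and 0.0414. f5 and serpind1 complete the count and were chosen after their values were seen.

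f8 and pros1 held without each array. Without the second WT array these 2 were called lower and 1 gene of the list was called higher, and the other 5 reached adjusted p of 0.0543 (serpinc1) to 0.208 (serpind1). Without the first or the second HBx,src array 4 were called, with plg, f5 and serpind1 lost, and 4 were called after each array was centred on its median. f5 was also lost without the first WT array (0.0689) and serpind1 without the third HBx,src one (0.0659). The hepatocyte list, which shares serpinc1, had 2 of 36 genes lower (5.56%, against 1.40% of all genes) and 0 higher, with a median of -0.22. The list's means per array were 10.62 and 11.01 in WT and 10.53 to 10.73 in HBx,src. Its second lower gene was agt, angiotensinogen (fell by 1.47, SE 0.36, adjusted p = 0.0434), which lost its call without any array but the third HBx,src one (up to 0.146). Whether the lower values reflect fewer hepatocytes, less RNA per hepatocyte or changes of single genes was not tested.

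Among complement genes, c3a.3, a copy of complement component C3, was at 11.95 and 11.80 in WT and at 2.47, 2.58 and 2.59 in HBx,src (fell by 9.33, SE 1.64, adjusted p = 0.00738). The HBx,src values are in the range of background, so this fall is a lower bound. The call of c3a.3 held without each array (adjusted p up to 0.031), but not with the first batch alone (0.106). The 2 further copies c3a.1 and c3a.2, chosen after their values were seen, were at 13.28 and 13.02 against 12.91 to 13.004, and at 10.70 and 11.19 against 10.68 to 11.70 (adjusted p = 0.838 and 0.842). Probe sets of near-identical copies can share transcripts, so these values are uncertain. Of the 56 acute phase and complement genes, 2 were lower (3.57%, against 1.40% of all genes) and 0 higher. They were c3a.3 and the lipocalin lcn15 (fell by 1.09, SE 0.27, adjusted p = 0.0433, up to 0.172 without 1 array).

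Of 27 iron genes, 4 were lower in HBx,src (14.8%, against 1.40% of all genes) and 0 higher, the median was -0.62, and 10 had a positive difference. hmox1b, a haem oxygenase, was 9.05 and 10.92 in WT and 5.59, 3.75 and 5.18 in HBx,src (fell by 5.15, SE 1.05, adjusted p = 0.0185). Its paralog hmox1a, chosen after its values were seen, overlapped between the groups, with 7.17 and 8.28 against 4.82, 3.63 and 7.77 (adjusted p = 0.304). The ferritin-like genes fthl31, fthl27 and fthl28, of iron storage, were lower by 2.61 ± 0.43, 2.87 ± 0.60 and 2.41 ± 0.33 (adjusted p = 0.00431, 0.0205 and 0.00143). fthl31 was 8.17 and 8.94 against 5.99, 6.57 and 5.27, and fthl28 was 4.42 and 3.10 against 1.35, 1.57 and 1.14, all below the array medians, so that with those medians as a floor it fell by at least 1.62. fthl28 and fthl31 held without each array, whereas hmox1b and fthl27 were lost without the second WT array (adjusted p = 0.105 and 0.132), hmox1b without the second HBx,src array (0.0663) and fthl27 without the first (0.0533). Near-identical ferritin copies may share probes.

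On the hypoxia list 4 of 42 genes were lower (9.52%, against 1.40% of all genes) and 0 higher, with a median of -0.66. adm2b, a vasoactive peptide gene, was 6.07 and 6.52 in WT and 2.35, 1.77 and 2.19 in HBx,src (fell by 4.19, SE 0.40, adjusted p = 0.000104), and mb, myoglobin, was 7.60 and 9.20 against 5.15, 5.09 and 5.39 (fell by 3.19, SE 0.52, adjusted p = 0.00399). ldha, the lactate dehydrogenase of glycolysis, and epas1b, a hypoxia-inducible factor, were lower by 2.33 ± 0.55 and 1.35 ± 0.33 (adjusted p = 0.0355 and 0.0446). angptl4, an inhibitor of lipoprotein lipase chosen after its values were seen, was 6.83 and 8.21 against 5.39, 3.38 and 4.58 (adjusted p = 0.13). adm2b and mb held without each array, while ldha lost its call without the second WT array (0.278) and epas1b without the first (0.267), and both without the first or second HBx,src array. Without the first WT array 10 of the list were lower, and without the first or the second HBx,src array 2 were.

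Of 38 erythrocyte genes, 1 was lower (2.63%, against 1.40% of all genes) and 0 higher. slc4a1a, the anion exchanger of the red cell membrane, was 3.91 and 5.02 in WT and 1.82, 2.26 and 2.03 in HBx,src (fell by 2.43, SE 0.32, adjusted p = 0.000781), and held without each array. The haem synthesis gene alas2 was at 4.81 and 4.80 against 2.58, 2.43 and 4.05 (adjusted p = 0.102), and the globin hbaa1 at 7.41 and 8.27 against 7.43 to 7.70. The list's mean per array was 3.67 and 3.98 in WT and 3.43 to 3.52 in HBx,src, and the part of blood in the iron and hypoxia values was not tested.

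The leptin gene lepa and its receptor gene were lower in HBx,src. lepa, a leptin, was 3.82 and 3.18 in WT and 1.76, 1.46 and 1.69 in HBx,src, all below the array medians (fell by 1.87, SE 0.21, adjusted p = 0.000304, and by at least 1.36 with those medians as a floor), and its receptor lepr was 5.75 and 6.18 against 3.95, 2.99 and 3.45 (fell by 2.50, SE 0.53, adjusted p = 0.022). esm1, a proteoglycan known from endothelial cells, was 11.98 and 11.46 against 6.41, 5.79 and 5.24 (fell by 5.91, SE 0.94, adjusted p = 0.00355). dio3b, which inactivates thyroid hormone, was 8.30 and 8.32 against 2.36, 2.21 and 3.26 (fell by 5.70, SE 1.16, adjusted p = 0.0177). epha3, an ephrin receptor, was 7.26 and 6.65 against 1.80, 2.03 and 1.90, all below the array medians (fell by 5.04, SE 0.87, adjusted p = 0.00646, and by at least 4.82 with that floor), and phlda2, known in mammals as an imprinted growth restrictor, was 9.13 and 8.08 against 2.75, 3.23 and 3.59 (fell by 5.41, SE 0.60, adjusted p = 0.000226). The actin regulator phactr2 fell from 8.74 and 6.46 to 2.25, 2.22 and 3.32 (a difference of -5.004 ± 0.67, adjusted p = 0.0011).

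met, the receptor of hepatocyte growth factor, was 8.10 and 8.20 in WT and 6.61, 6.25 and 6.60 in HBx,src (fell by 1.66, SE 0.23, adjusted p = 0.00136). It was 1 of 3 lower among 83 growth and tumour genes (3.61%, against 1.40% of all genes), 0 of which were higher (1.28% of all genes). The others were akt2, a kinase of insulin signalling (-0.76 ± 0.18, adjusted p = 0.0336), and spry4, a feedback inhibitor of receptor tyrosine kinases (-2.27 ± 0.56, adjusted p = 0.0442). The vascular receptor kdr (-1.50 ± 0.29, adjusted p = 0.0127) was the 1 called gene of 45 stellate and endothelial genes (2.22%). On that list 23 genes had a positive and 22 a negative difference, with a median of 0.05. Its defining markers were mixed, with kdrl at -0.88, hand2 at -0.24 and cdh5 at 0.92 (adjusted p = 0.0884, 0.836 and 0.130). The adhesion gene vcam1b, 1 of 51 on the inflammation list (1.96%), fell by 1.19 (adjusted p = 0.0323). Both shares stand beside 1.40% of all genes. lepa, esm1, epha3, phlda2, phactr2 and met held without each array. dio3b was lost without any array but the third HBx,src one, at adjusted p up to 0.06, kdr without the first WT array (0.0514), lepr without the second WT or HBx,src array (0.0871 and 0.0761), akt2 without the second WT array (0.164) or the first or second HBx,src array (0.0754 and 0.116), vcam1b without any array but the first WT one (up to 0.194), and spry4 without any but the third HBx,src one (up to 0.213).

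**Figure D4:**
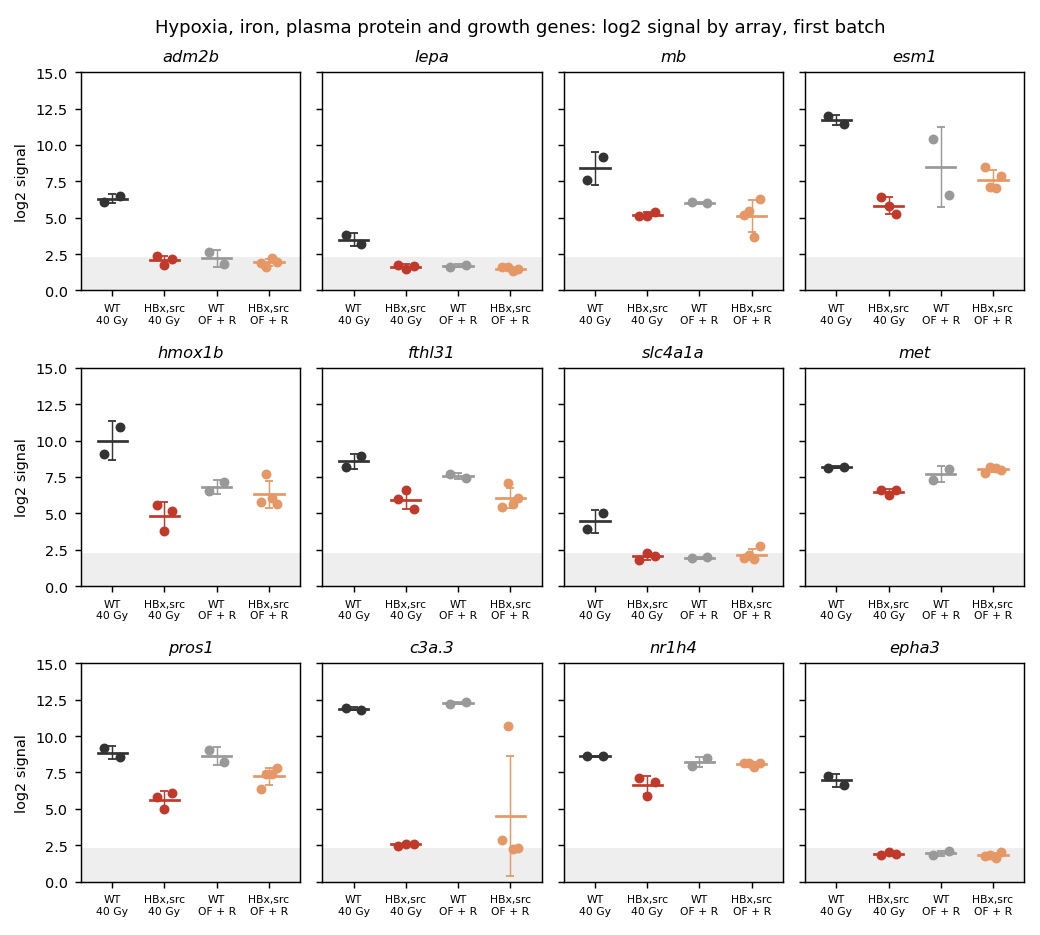
Log2 signal of 12 genes called lower in HBx,src in each array of the first batch, by group; points are arrays, lines the mean and bars the SD, and grey marks values under the highest array median. For adm2b, lepa, slc4a1a and epha3 only the 2 WT arrays with 40 Gy alone stand above 3, while met and nr1h4 are lower only in the 3 HBx,src arrays with 40 Gy alone, and 1 of 4 HBx,src OF + R arrays has c3a.3 at 10.71.

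The bile acid receptor gene nr1h4 (FXR) was 8.60 and 8.65 in WT and 7.11, 5.91 and 6.84 in HBx,src (fell by 2.00, SE 0.30, adjusted p = 0.00259). abcg2a, a transporter of drugs and urate, was 8.71 and 10.14 against 7.67, 7.12 and 6.64 (fell by 2.29, SE 0.37, adjusted p = 0.00443), and the bile salt pump gene abcb11a was at 4.47 and 2.72 against 2.09, 2.11 and 1.93, all below the array medians (fell by 1.55, SE 0.36, adjusted p = 0.0335, and by at least 1.45 with that floor). These were the 3 lower of 28 bile acid genes (10.7%, against 1.40% of all genes) and 0 were higher, but the list's median was 0.11. nr1h4 and abcg2a held without each array, and abcb11a was lost without the first WT array (0.354) and without each HBx,src array (0.065 to 0.0787). On the sterol list the median difference was 0.53, with 21 positive and 5 negative, but it was -0.24 without the second HBx,src array. After each array was centred on its median 0 of its 26 genes were called. As deposited 1 was lower (3.85%, against 1.40% of all genes), with 0 higher. This was the lysosomal cholesterol transporter npc1 (-1.34 ± 0.32, adjusted p = 0.039, 0.35 without the second WT array, and 0.121 and 0.0704 without the second and the third HBx,src array).

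Named enzyme genes of alcohol, drug and amino acid metabolism were called in both directions. adh8a, an alcohol dehydrogenase, was 4.60 and 7.78 in WT and 11.93, 11.40 and 11.20 in HBx,src (5.32 ± 0.80, adjusted p = 0.00265), in the same direction on both probe sets. cyp2u1, a cytochrome P450 of fatty acids, was 2.84 and 5.72 against 8.98, 8.68 and 6.82 (3.88 ± 0.66, adjusted p = 0.00622), and cyp2aa6, of a fish P450 family, was 6.68 and 4.95 against 3.05, 2.89 and 2.89 (fell by 2.87, SE 0.71, adjusted p = 0.0464). They were the 2 called of 45 P450 genes, 2.22% in each direction against 1.28% and 1.40% of all genes. cyp2k6, chosen after its values were seen, was 1.63 and 2.47 against 9.83, 8.59 and 8.16 without passing (6.81 ± 2.06, adjusted p = 0.106, and 0.00097 with the first batch alone). Among 47 conjugation genes, gstm.1 and sult3st1 were higher by 2.55 ± 0.57 and 3.41 ± 0.77 (adjusted p = 0.0273 and 0.03), and sult1st1 was 5.88 and 8.97 in WT against 4.06, 4.79 and 3.45 (fell by 3.32, SE 0.70, adjusted p = 0.0206). Of that list 4.26% were higher and 2.13% lower, against 1.28% and 1.40% of all genes. The antioxidant genes sod1 and prdx4 were higher by 1.59 ± 0.32 and 1.71 ± 0.43 (adjusted p = 0.0158 and 0.0467), beside the lower hmox1b and fthl27 on the same list of 40, 5% in each direction.

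On the amino acid breakdown list 4 of 71 were higher (5.63%, against 1.28% of all genes) and 1 lower (1.41%, near the 1.40% of all genes). They were afmid of tryptophan (1.62 ± 0.32), amdhd1 of histidine (2.27 ± 0.45), sardh of sarcosine (2.73 ± 0.64) and mccc2 of leucine (1.33 ± 0.32), at adjusted p of 0.0148, 0.0148, 0.0356 and 0.0427, and the glutaminase gls2b, which was 7.23 and 8.02 in WT and 2.09, 3.35 and 5.36 in HBx,src (fell by 4.03, SE 0.79, adjusted p = 0.0149). slc3a2a, a chain of amino acid transporters, was 7.18 and 6.61 against 5.35, 4.56 and 3.88 (fell by 2.30, SE 0.42, adjusted p = 0.00874), and the glycogen branching gene gbe1b was 1.40 ± 0.34 higher (adjusted p = 0.0426). Of the enzyme and transporter genes in this and the preceding paragraph, adh8a alone held without each array. Without the first WT array the adjusted p was 0.059 for cyp2u1, 0.0593 for slc3a2a, 0.111 for afmid, 0.145 for amdhd1, 0.223 for sardh, 0.123 for mccc2, 0.279 for gbe1b, 0.31 for cyp2aa6, 0.122 for gstm.1, 0.254 for sult3st1, 0.133 for sod1 and 0.275 for prdx4, and without the second it was 0.185 for sult1st1 and 0.0661 for gls2b. All of these but cyp2u1 and slc3a2a also lost their call without the first HBx,src array (adjusted p of 0.0536 to 0.146). Without the second HBx,src array amdhd1, sardh, mccc2, gbe1b, cyp2aa6, gstm.1, sult3st1 and prdx4 lost it (0.0565 to 0.136), and cyp2aa6 and prdx4 did without the third HBx,src array (0.0759 and 0.0502). mccc2 was also lost without the second WT array (0.112). On the amino acid list 0 to 11 genes were called higher when 1 array was left out, 0 without the first WT or the first HBx,src array and 11 without the third HBx,src one.

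Of 49 neutrophil and macrophage genes 3 were higher (6.12%, against 1.28% of all genes) and 0 lower, with a median of 0.33. ptprc (CD45) was 2.38 and 2.69 in WT and 4.98, 5.00 and 4.79 in HBx,src (2.39 ± 0.50, adjusted p = 0.02), fcer1gl, the Fc receptor chain, was 3.23 and 3.57 against 6.10, 5.67 and 6.01 (2.52 ± 0.53, adjusted p = 0.0206), and grna.1, a granulin, was 3.03 ± 0.76 higher (adjusted p = 0.0476). The defining markers were mixed: mpeg1.1 read 2.10 and 3.40 against 4.44, 4.58 and 3.55, spi1b 3.24 and 3.04 against 5.06, 3.74 and 4.31, and mpx and lyz 2.02 to 2.60 throughout. The mean per array over the list was 3.59 and 3.90 in WT and 4.06 to 4.31 in HBx,src. tap1, which loads antigen peptides, was 3.58 and 3.90 against 5.41, 6.28 and 7.20 (2.56 ± 0.42, adjusted p = 0.00413), and b2m, a chain of MHC class I, 1.56 ± 0.38 higher (adjusted p = 0.0403). They were the 2 called of 52 interferon genes (3.85%, against 1.28% of all genes). tap1 held without each array, and without the first WT array ptprc, fcer1gl and b2m reached 0.0871, 0.0905 and 0.272. They were also lost without the first HBx,src array (0.0572, 0.0636 and 0.102), ptprc without the second (0.0564) and b2m without the third (0.102), and grna.1 was lost without any array but the first WT one (up to 0.287). The neutrophil and macrophage list had 0 genes called without the first HBx,src array, 1 higher without the second or without the first WT array, and 2 higher and 4 lower without the second WT array.

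tgfbi, a matrix protein induced by TGF-beta, was 3.34 and 6.33 in WT and 9.90, 8.83 and 9.26 in HBx,src (4.49 ± 0.79, adjusted p = 0.00696, and 0.072 without the first WT array). The matrix protease mmp14b was 3.48 and 5.29 against 6.11, 6.19 and 6.66 (1.94 ± 0.43, adjusted p = 0.0273), and the thrombospondin thbs1a 6.22 and 5.85 against 3.30, 2.78 and 3.99 (fell by 2.67, SE 0.62, adjusted p = 0.0337). These were the 3 called of 58 matrix and fibrosis genes, 3.45% higher and 1.72% lower, against 1.28% and 1.40% of all genes. mmp14b lost its call without the first WT array (0.281) or any HBx,src array, and thbs1a without any array but the third HBx,src one (up to 0.138).

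Of 87 respiratory chain and ATP synthase genes 5 were higher (5.75%, against 1.28% of all genes) and 0 lower. The median difference was 0.22, and 0.076 without the first WT array. Of the 87 differences 65 were positive and 22 negative, where 11099 of all 21125 genes were positive. The list's means per array overlapped, with 6.03 and 6.34 in WT and 6.17 to 6.64 in HBx,src. atp5mc3b was 5.66 and 5.63 in WT and 6.94, 7.71 and 6.76 in HBx,src (1.49 ± 0.31, adjusted p = 0.0187), and ndufb1, ndufb3, atp5po and ndufa8 were higher by 0.85 to 1.05 (adjusted p = 0.0266 to 0.047). Each of the 5 was lost without at least 1 array, and 0 to 12 genes of the list were called higher when 1 array was left out, 12 of them without the third HBx,src array and 0 without the second. Of 70 ribosomal protein genes, rps28 was the 1 called, 1.43% against 1.28% of all genes (1.52 ± 0.38, adjusted p = 0.0486, up to 0.161 without 1 array), 66 had a positive difference with a median of 0.45, and the arrays did not overlap for 31 in the higher direction (15.3% of all genes) and 0 in the lower (13.1%). After each array was centred on its median 4 of the 70 were called higher. As deposited, the means per array of the 70 overlapped, with 8.75 and 9.11 in WT and 9.07 to 9.59 in HBx,src. On the nucleolar list 2 of 70 were higher (2.86%, against 1.28% of all genes) and 0 lower, with a median of 0.10. This list's means per array overlapped, with 4.65 and 4.20 in WT and 4.24 to 4.87 in HBx,src. The 2 were polr1d and utp18, higher by 1.46 ± 0.30 and 1.19 ± 0.27 (adjusted p = 0.0202 and 0.0299). Both lost their call without the second WT array (differences 1.27 and 0.56). They were also lost without the first and the second HBx,src array, respectively (0.0664 and 0.103).

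For cell death and division, casp8, the initiator caspase, was 4.82 and 4.41 in WT and 6.43, 5.33 and 6.81 in HBx,src (1.57 ± 0.37, adjusted p = 0.0349), and ei24, a p53 target, was 5.71 and 5.33 against 7.60, 6.94 and 6.73 (1.57 ± 0.36, adjusted p = 0.0335). They were the 2 called of 42 p53 target genes (4.76%, against 1.28% of all genes). cdk4, the kinase of early G1, was 5.30 and 5.52 against 6.58, 6.48 and 6.43 (1.08 ± 0.23, adjusted p = 0.0206), the 1 called of 64 cell cycle genes (1.56%, near the 1.28% of all genes). cdk4 was lost without the first WT array (0.101) or the first or second HBx,src array (0.0643 and 0.0543), casp8 without any array but the second HBx,src one (0.0885 without the third, up to 0.149), and ei24 without any but the third (up to 0.138). On the glucocorticoid and fasting list 1 of 41 was higher (2.44%, against 1.28% of all genes) and 3 lower (7.32%, against 1.40%), with a median of -0.30. klf15, a regulator of fasting metabolism, was 1.99 ± 0.47 higher (adjusted p = 0.0367, and 0.108 and 0.0943 without the first and second HBx,src arrays). Its call was also lost without the first WT array (difference 1.11). On the clock list 1 of 48 was lower (2.08%, against 1.40% of all genes). The clock gene per2 was 1.73 lower (SE 0.40, adjusted p = 0.0346). Its call was lost without any array but the first HBx,src one (0.118 without the second HBx,src one).

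Among 23 genes chosen for PCR in the study, casp8 was the 1 called (4.35%, against 1.28% of all genes), and their median difference was 0.24. ddah1, which clears inhibitors of nitric oxide synthesis, was 5.49 and 6.15 in WT and 7.35, 7.05 and 7.15 in HBx,src without passing (1.36 ± 0.40, adjusted p = 0.0911). hnf4a, the hepatocyte transcription factor, was 6.44 and 7.21 against 7.91, 7.10 and 7.69 (adjusted p = 0.247). agpat4, of phosphatidic acid synthesis, was 3.14 and 2.36 against 6.00, 6.46 and 5.30 (3.17 ± 1.39, adjusted p = 0.297, and 0.0241 with the first batch alone), and the fibrosis gene ccn2a 4.51 and 2.34 against 2.58, 2.14 and 2.75 (adjusted p = 0.435).

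The exocrine trypsin gene prss1 was 6.06 and 7.95 in WT and 3.87, 5.64 and 5.93 in HBx,src (adjusted p = 0.393), and the mean of the 37 exocrine genes per array was 3.90 and 4.57 in WT and 3.34 to 3.80 in HBx,src, with 0 called. Of 34 endocrine genes 2 were lower (5.88%, against 1.40% of all genes) and 0 higher. They were the somatostatin gene sst1.1 (3.52 and 4.18 against 2.02, 2.38 and 2.37, adjusted p = 0.0356, 0.185 without the second WT array) and the secretory chaperone scg5 (adjusted p = 0.0403, 0.314 without the first). Both were lost without the first or second HBx,src array (0.0721 to 0.116). The part of pancreas in the other differences was not tested. On the lists of ovary, testis, intestine, biliary and lymphocyte genes 0 were called at the adjusted threshold, with 4 higher and 2 lower of 55 ovary genes and 1 to 4 each way on the other lists at an unadjusted p under 0.05, which 8.79% of all genes passed in the higher and 8.18% in the lower direction.

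**Figure D5:**
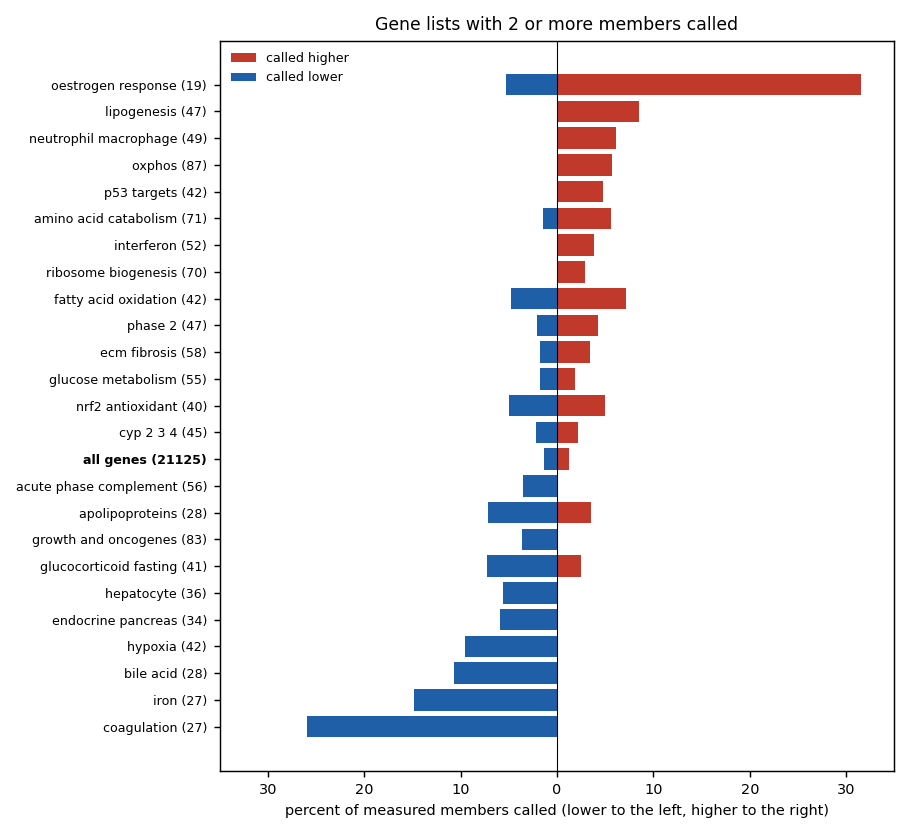
Share of the measured members of each gene list called higher (right) or lower (left) in HBx,src, for lists with at least 2 calls, with the number of members in parentheses and all 21125 genes in bold. Oestrogen response reaches the highest share of higher genes, 6 of 19, and coagulation the highest share of lower ones, 7 of 27, against 1.28% and 1.40% of all genes.

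Further genes with the largest differences have no settled role here. epdl2, an ependymin-like gene, was 2.35 and 3.00 in WT and 9.40, 9.44 and 8.03 in HBx,src (6.28 ± 1.58, adjusted p = 0.0498, lost without any single array). si:busm1-57f23.1 was 3.64 and 4.61 against 8.78, 8.36 and 9.33 (4.70 ± 0.73, adjusted p = 0.00312), and si:ch211-264f5.2 was 3.86 and 3.68 against 6.93, 9.05 and 8.43 (4.36 ± 0.60, adjusted p = 0.00143). In the lower direction, LOC100536983 was 8.70 and 8.32 against 1.91, 1.85 and 4.51 (fell by 5.75, SE 0.85, adjusted p = 0.00245), and si:dkey-85k7.12 was 5.62 and 7.62 against 1.91, 1.83 and 1.80, below the array medians (fell by 4.77, SE 0.58, adjusted p = 0.000418, and by at least 4.48 with that floor). These last 4 genes held without each array.

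The like comparison after OF + R, on 4 HBx,src and 2 WT arrays shared with none of the above, called 294 of 21125 genes (1.39%), 61 of them higher and 233 lower. Of the 270 and 61 higher genes, 26 were shared, 9.63% of the first list and 42.6% of the second, and of the 296 and 233 lower genes 22 were, 7.43% and 9.44%. A positive OF + R difference was found for 208 of the 270 higher genes, against 10523 of all 21125 genes. A negative one was found for 233 of the 296 lower genes, against 10602 of all genes. The medians were 0.36 in place of 1.56 and -0.39 in place of -1.57. These genes were chosen by their values with 40 Gy alone, so smaller medians on other arrays do not show a change with OF. adh8a (3.70 ± 0.76, adjusted p = 0.0243), tgfbi (4.25 ± 0.75, 0.00842), pltp (-5.77 ± 0.83, 0.00156), phactr2 (-2.94 ± 0.64, 0.0343), proca (-1.44 ± 0.26, 0.00879), LOC100536983 (-6.53 ± 0.81, 0.000458) and si:dkey-85k7.12 (-4.17 ± 0.55, 0.000766) passed in both, among others. nots was 7.50 ± 1.75 higher (adjusted p = 0.0498), while vtg2 and vtg3, 8.19 and 9.71 higher, reached 0.0745 and 0.0535.

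A test of whether the difference itself changed with OF called 36 genes higher (0.170%) and 11 lower (0.0521%). For adm2b the difference fell by 3.91 more with 40 Gy alone than after OF + R (SE 0.56, adjusted p = 0.00827), and the OF + R arrays read 2.62 and 1.80 in WT and 1.63 to 2.24 in HBx,src. slc4a1a and lepa followed the same pattern (differences of -2.64 and -1.67, adjusted p = 0.0225 and 0.0283), with WT OF + R at 1.90 and 2.00 and at 1.64 and 1.76. For met the change was -1.99 (SE 0.32, adjusted p = 0.0181), with 7.30 and 8.06 in WT OF + R and 7.74 to 8.20 in HBx,src OF + R, so that the 3 HBx,src arrays with 40 Gy alone were the low ones. mmp14b and lpcat3 changed by 3.34 and 2.04 (adjusted p = 0.0283 and 0.0462), with WT OF + R at 6.55 and 7.09 for mmp14b and at 6.92 and 8.22 for lpcat3. For esm1, epha3 and hmox1b, 5.04, 4.91 and 4.61 lower with 40 Gy alone than after OF + R, the test was not passed (adjusted p = 0.162, 0.134 and 0.287).

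The second batch offers a comparison of obese HBx,src,p53 fish, which are heterozygous for p53, with WT fish at 10 Gy without OF. It differs in dose, genotype and batch, while age and diet were those of the first batch, so the values stand side by side. There vtg2 differed by 0.11 (adjusted p = 0.991) and fads2 by -0.24 (0.9004), and vtg2 read 13.71 and 13.89 in WT and 13.90 to 13.93 in HBx,src,p53. pros1 (-2.08, adjusted p = 0.00865), abcg2a (-2.40, 0.00029), fthl27 (-2.29, 0.0241), decr2 (1.21, 0.00561), cdk4 (1.47, 0.000253), lpcat3 (1.07, 0.0277), ptprc (1.73, 0.041) and epdl2 (6.64, 0.0123) were among those called in the same direction as at 40 Gy. mid1ip1l (-2.19, adjusted p = 0.00145), sar1b (1.32, 0.00577) and kdr (1.32, 0.00632) were called in the other direction. Of the 270 higher genes 42 were higher there too (15.6%, and 3.73% of the 1127 higher genes of that comparison) and 10 were lower, and of the 296 lower genes 28 were lower (9.46%, and 1.58% of 1775) and 23 higher. In that comparison, which called 5.33% of genes higher and 8.40% lower, 41 of 55 ovary genes were lower, with means over the list of 5.91 and 5.74 in WT and 2.37 to 2.92 in HBx,src,p53, and their part in its values was not tested.

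Only 10 genes were called in one direction in all 3 comparisons, and they were chosen by that count after their values were seen. The comparisons share no arrays, but they share the spread of the same fit, so they are not independent. The 7 higher ones were iqsec2a (2.23, 2.16 and 1.23 in the order 40 Gy, OF + 40 Gy and 10 Gy), gltpd2a (2.26, 1.76 and 1.57), mtss1la (2.00, 1.99 and 2.09), tecrb (1.97, 1.54 and 1.07), SPOP (1.52, 1.78 and 2.25), clstn1 (1.12, 1.29 and 1.59) and ogg1 (0.82, 0.85 and 0.66). tecrb is an enzyme of fatty acid elongation, ogg1 a glycosylase that removes oxidised guanine from DNA, and gltpd2a a glycolipid transfer protein. The 3 lower ones were si:dkey-85k7.12 (-4.77, -4.17 and -2.20), pcbp4, an RNA-binding protein (-3.39, -2.69 and -2.41), and kita, a receptor tyrosine kinase known for pigment and germ cells (-1.79, -1.68 and -1.54).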

How the data were processed

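Liver RNA had been hybridised to ZebGene 1.1 ST arrays, 1 array per sample, 23 in 8 groups. The authors deposited 1 background-corrected, normalized log2 signal per probe set and array, made with the Transcriptome Analysis Console, whose version, algorithm and annotation build are not given here by any source. The values were used as deposited, with no detection calls. Of 75212 probe sets 30358 had 1 gene symbol, 1015 several and 43839 none here, and 21125 genes were given by their brightest probe set.

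One limma 3.58.1 model (lmFit and eBayes, R 4.3.3) with 8 group means was fitted to all 23 arrays (15 residual degrees of freedom), and p-values were adjusted by Benjamini-Hochberg over the probe sets, at a threshold of 0.05. Contrasts were HBx,src minus WT at 40 Gy, the same after OF + 40 Gy, their difference, and HBx,src,p53 minus WT at 10 Gy. The 45 gene lists were described by counts and medians, without a set test. Named genes came from the 12 largest non-overlapping differences each way and from up to 5 members of each list with the smallest p. They also came from the study's PCR genes, label checks and defining markers, not all of which are given. Others are marked. The members and lists were chosen with earlier results of these data known. The script was tested on simulated data. It called 15 of 100 probe sets changed by 1 log2 unit and 74 of 100 changed by 2, and 4 unchanged ones. A gene that was not called may therefore still differ. Alternatives varied the arrays, scaling, filter, variance model, block and probe set rule. Figures were drawn with Python 3.11.15, pandas 2.3.3 and matplotlib 3.10.9. The number of arrays limits the precision. No arrays were identical (0 pairs).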

Additional observations from a re-analysis of the deposited data

Results flagged for a closer look

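In 6 of 117 named genes, 1 of the 4 HBx,src arrays with OF + R stood apart from the other 3. Chance alone gives about 1 in 20, and the count is near that share. The lone array was the highest for c3a.3 (10.71), fasn (7.74) and atp5po (6.32), and the lowest for agt (10.94), epas1b (7.82) and nr1h4 (7.88). The HBx,src to WT difference with 40 Gy alone differed from that after OF + R, by limma's test of the difference, in 6 of the named genes. It was further down with 40 Gy alone for adm2b (-3.91), slc4a1a (-2.64), met (-1.99) and lepa (-1.67), and further up for mmp14b (3.34) and lpcat3 (2.04), with adjusted p of 0.00827 to 0.0462. Neither pattern was weighed further.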

How the results depend on the processing

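Of 75212 probe sets, 630 were called higher and 818 lower at 40 Gy alone. The 5 arrays alone gave 37 (23 higher, 14 lower; genes 14, 5 and 9; 7204 probe sets had an unadjusted p under 0.05), the 11 arrays of the first batch 482 (221 and 261; genes 169, 76 and 93), array weights 357 (151 and 206), quantile normalization over all arrays 3150 (1386 and 1764) and a fold change of 2 with an unadjusted p under 0.05 4695 (2190 and 2505). A block on the replicate number gave 88 (58 and 30). Deviations of same-numbered arrays from their group means correlated at -0.10 and 0.06, in only 2 pairs. With 2 WT arrays these deviations mirror each other, so the check cannot decide whether the numbers mark a pairing. Without 1 array the counts were 710 to 2357 (304 to 904 higher, 399 to 1568 lower), and for genes 293 to 863 (127 to 400 and 150 to 464). After median centring 56.6% of called probe sets were higher, against 43.5% as deposited. After OF + R the first batch alone gave 389 (113 and 276), and leaving out 1 array 416 to 804 (41 to 182 and 320 to 622); at 10 Gy this gave 3657 to 4967 (1033 to 2027 and 2624 to 2940). For the difference of differences, 125 as fitted, the first batch gave 23 (12 and 11) and leaving out 1 array 51 to 657 (34 to 243 and 17 to 422), with 623 and 657 without the first and second WT arrays with 40 Gy alone. The leave-one-out counts of these last 3 comparisons were added after seeing the data. Of the named genes, 3 uncalled ones changed sign: fabp10a (-0.028 and -0.0458 with quantile normalization over all arrays and within batches, and -0.23 to 0.46 without 1 array), apoa2 (-0.18 and -0.20, and -0.10 to 0.18) and ccn2a (-2.01 to 0.15 without 1 array). The causes were not tested. Signals near the array median limit the folds of dim genes.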

Other observations

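Outside the gene lists, the test of the difference between the 40 Gy and OF + R comparisons named further genes, chosen after their values were seen. The toll-like receptor gene tlr18 was 6.28 and 7.16 in WT with 40 Gy alone and 1.99, 1.90 and 2.28 in HBx,src, a difference of -4.66 (adjusted p = 1.43e-06). In WT with OF + R it read 3.24 and 3.78, and the difference between the differences was -3.71 ± 0.42 (adjusted p = 0.0017). s100a1, a calcium-binding protein gene, was 4.88 and 5.16 against 2.06, 1.99 and 2.31 (-2.90, adjusted p = 3.44e-05), with WT OF + R at 2.22 and 1.73. nipsnap1, a mitochondrial protein gene, ran the other way, with 1.99 and 2.18 in WT and 4.49, 4.56 and 4.32 in HBx,src (2.38, adjusted p = 0.000178), and 4.34 and 5.24 in WT OF + R. In these 3 genes the 2 WT arrays with 40 Gy alone stood apart from all other arrays named here.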
